A study of Homo sapiens with 12 samples.

Results

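The 4 Sprouty genes (SPRY1, SPRY2, SPRY3 and SPRY4) and the 3 SPRED genes (SPRED1, SPRED2 and SPRED3) were followed by RNA-seq in A375, a human melanoma cell line with mutated BRAF that the study had from ATCC. They are the 7 rows, of 44659 genes in the table of raw read counts, that bear these symbols. Cells received 500 nM vemurafenib, a BRAF inhibitor, together with 500 nM cobimetinib, a MEK inhibitor (MAPKi), or the solvent DMSO for 24 h, and in another experiment they were kept for 24 h in medium lacking glutamine after a PBS wash (Gln-depleted) or in control medium (CTRL). The usual medium, also used for MAPKi and DMSO, held 2 mM glutamine. Each of the 4 groups had 3 libraries. The MAPKi and DMSO libraries formed sequencing batch 2, the Gln-depleted and CTRL libraries sequencing batch 1, and within the latter replicate 1 was experimental batch 1 while replicates 2 and 3 were experimental batch 2. The labels describe RNA of the cytoplasmic fraction, the RNA-seq methods of the study total RNA. The sources do not say that replicates came from separate cultures, so p-values measure the spread between these libraries.

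Growth factor receptors activate RAS, RAF, MEK and ERK in turn, and active ERK switches on genes whose products restrain the same route. Sprouty proteins are such feedback inhibitors and act between the receptor and RAF, while SPRED proteins bring the RAS GTPase-activating protein neurofibromin (NF1) to the membrane. Both families share a cysteine-rich Sprouty domain, and SPREDs carry an EVH1 domain in addition. In BRAF-mutated melanoma the mutant kinase drives ERK without needing RAS, and transcripts of these genes are commonly read as a gauge of ERK output.

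The libraries held from 31056296 to 40071368 counted reads each, with a median of 35748567, and values are given as CPM, the counts scaled to a common total of reads after TMM normalization. The melanoma label was borne out by SOX10, MITF, PMEL, DCT and S100B, each above 1 CPM on average in all 4 groups, whereas MLANA and TYR reached 1 CPM only with MAPKi. The summed level of the 7 melanoma markers was 1348 to 1421 CPM with DMSO and 8692 to 10975 CPM with MAPKi, and it was 976 to 1227 CPM in CTRL and 659 to 698 CPM in Gln-depleted cells. DCT, an enzyme of pigment synthesis, carried most of the rise with MAPKi, from 202 to 7776 CPM on average, whereas S100B fell from 175 to 39.5 CPM (log2 fold change -2.14, edgeR adjusted p = 1.2e-09). With Gln depletion MITF, the master regulator of the melanocyte lineage, fell with -2.38 (edgeR adjusted p = 0.00363), and the other 6 did not pass, whereas 5 of the 7 were lower with the replicate block described below. The 8 markers of other cell types summed to 62.3 to 71.3 CPM with DMSO and 403 to 414 CPM with MAPKi, most of it CD68, and to 40.1 to 62.7 CPM in CTRL and 30.3 to 42.7 CPM in Gln-depleted cells. KRT5 had 0 reads in all groups and PECAM1 had 0 reads in all but MAPKi. The endothelial marker VWF averaged 4.7 CPM with DMSO, 8.5 with MAPKi, 3.58 in CTRL and 4.59 in Gln-depleted cells. COL1A1 passed 1 CPM only with MAPKi, at 1.71 CPM. With MAPKi CD68, VWF and COL1A1 passed as higher and PTPRC as lower. With Gln depletion none passed, whereas CD68 and COL1A1 were lower with the replicate block. The part of these differences in the results below was not tested.

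The stretches upstream of SPRY4, SPRY2 and SPRY1 are shown because these genes fell most with MAPKi and parted under Gln depletion. Each is the 250 bases before the start of the canonical GENCODE transcript, read from GRCh38 in the direction of the gene. SPRY4 is on the minus strand of chromosome 5 (window chr5:142325022-142325271), SPRY2 on the minus strand of chromosome 13 (chr13:80341127-80341376) and SPRY1 on the plus strand of chromosome 4 (chr4:123396545-123396794). Capitals mark every match to any of 7 letter patterns searched on both strands, namely CCGGAAG (ETS factors), TGANTCA (AP-1), TGACGT (the core of the cAMP response element), TGAATGA and TGAATGG (the first letters of sites known to bind the repressor Capicua, CIC), TGTTTAC (FOXO) and GGGCGG (SP and KLF factors). The patterns were chosen after these windows had been seen.
SPRY4: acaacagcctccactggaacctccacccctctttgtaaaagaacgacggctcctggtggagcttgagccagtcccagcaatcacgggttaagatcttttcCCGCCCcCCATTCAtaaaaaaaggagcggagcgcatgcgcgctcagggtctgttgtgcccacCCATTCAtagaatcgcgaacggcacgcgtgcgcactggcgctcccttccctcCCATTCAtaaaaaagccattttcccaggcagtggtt
SPRY2: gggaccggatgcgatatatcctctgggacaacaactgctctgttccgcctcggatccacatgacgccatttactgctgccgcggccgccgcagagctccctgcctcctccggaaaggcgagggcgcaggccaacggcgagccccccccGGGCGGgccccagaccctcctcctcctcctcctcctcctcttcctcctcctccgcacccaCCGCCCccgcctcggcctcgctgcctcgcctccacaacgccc
SPRY1: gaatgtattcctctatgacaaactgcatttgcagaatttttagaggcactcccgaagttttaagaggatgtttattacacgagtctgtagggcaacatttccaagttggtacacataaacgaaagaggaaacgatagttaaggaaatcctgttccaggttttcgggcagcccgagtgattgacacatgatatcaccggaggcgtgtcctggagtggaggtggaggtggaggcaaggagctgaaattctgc
The SPRY4 window held TGAATGG 3 times, each on the strand opposite to the gene and therefore printed as CCATTCA, at bases -143 to -137, -88 to -82 and -36 to -30 counted back from the start. Among 27305 upstream windows of the same length, 1 per gene of the RefSeq promoter table for GRCh38, 2.62% held TGAATGG, 5.87% held either CIC pattern and 0.114% held 3 or more. In each of the 3 matches the next letter on the motif strand was G, whereas the known CIC sites go on with A, so none of the 3 matched the whole site. GGGCGG was matched at bases -150 to -145 of SPRY4 and at 2 places in SPRY2, and 42.3% of all windows hold it. The SPRY1 window matched none of the patterns, nor did those of SPRY3 and SPRED2, while SPRED1 and SPRED3 each held only GGGCGG, 1 time. The ETS, AP-1, cAMP response element, TGAATGA and FOXO patterns, which 8.82%, 6.6%, 7.42%, 3.42% and 2.98% of all windows hold, were absent from all 7 windows. A match is a description of the letters and no evidence of binding, and a missing match says only that these letters are not in this window. RefSeq places the SPRY4 start elsewhere (its promoter window is chr5:142324198-142324497), and the 250 bases of that window upstream of the start held neither CIC pattern. The window of the canonical start also faces SPRY4-AS1, an antisense RNA gene whose first annotated start lies on the other strand with 187 bases between the starts. All 3 TGAATGG matches lie between them, and 63 bases of the window belong to an exon of SPRY4-AS1 and 9 to an exon of another SPRY4 transcript.

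MAPKi lowered all 6 members that could be tested, and the Sprouty genes fell much further than the SPRED genes. SPRY4, SPRY1 and SPRY2 fell 178-fold, 163-fold and 50.9-fold, and SPRED3, SPRED1 and SPRED2 fell 4.08-fold, 4.06-fold and 2.92-fold. The median log2 fold change of the 6 members was -3.85, against -0.01 over the 12597 protein-coding genes tested. All 6 passed as lower in edgeR's quasi-likelihood test against no change (Benjamini-Hochberg adjusted p under the limit of 0.05), a result reached by 39.8% of all genes tested, and 38.4% were higher. The 6 also passed the test against a 1.5-fold change, the threshold the study used, which 18.8% of the genes passed downward. In each of the 6 the MAPKi libraries lay below every DMSO library, as for 41.1% of the genes tested. Fewer cells with a transcript and fewer transcripts per cell cannot be told apart in RNA from bulk cells.

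**Figure D1:**
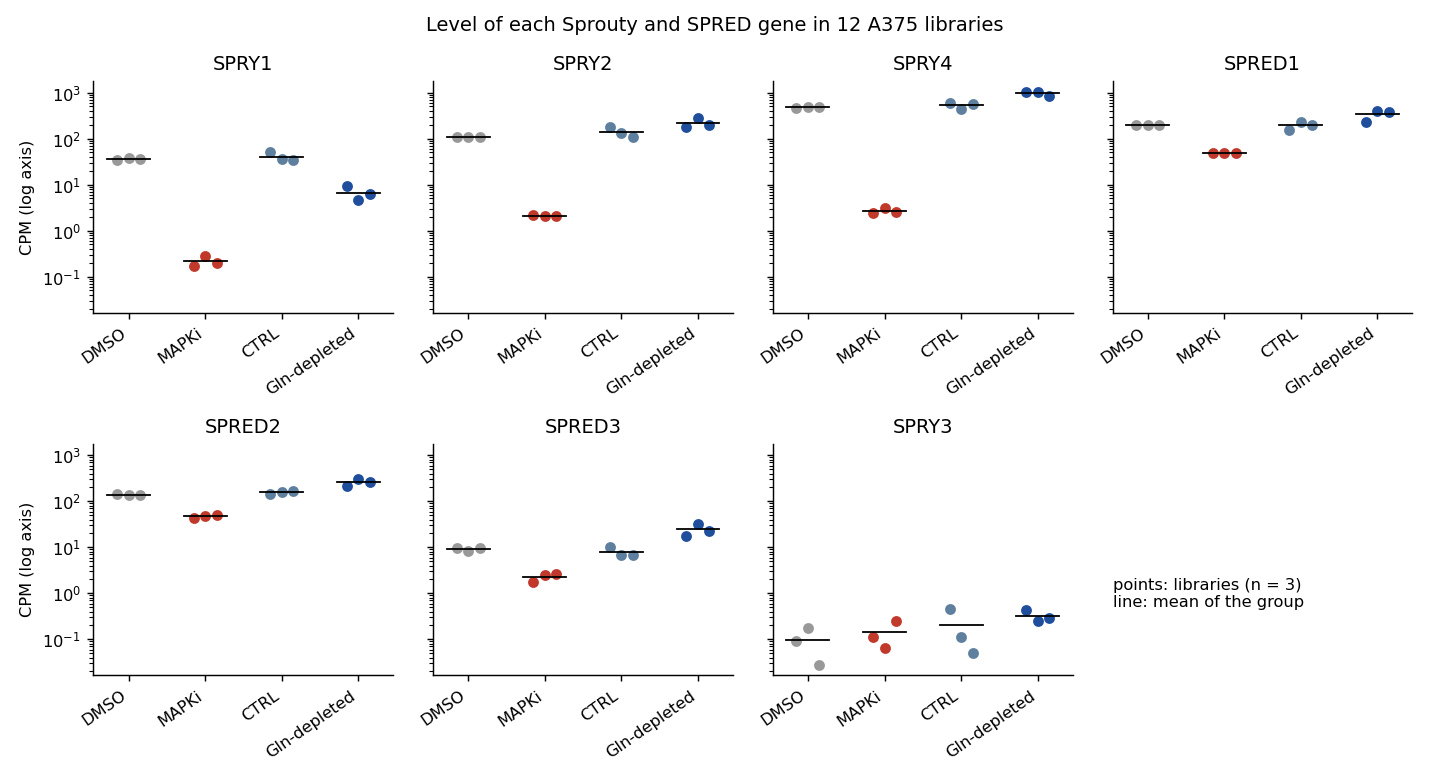
CPM of each gene in each library on a shared log axis, with 3 points per group and a line at the group mean. The MAPKi points of SPRY1, SPRY2 and SPRY4 lie far below those of DMSO, SPRY1 alone is lower in Gln-depleted than in CTRL libraries, and SPRY3 stays under 0.5 CPM in every library.

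SPRY4 was the most abundant of the 7 without inhibitor, with 471, 490 and 480 CPM in DMSO replicates 1 to 3. It had 2.44, 3.17 and 2.53 CPM with MAPKi, from 86, 100 and 100 reads. The 3 MAPKi libraries thus held 0.565% of the DMSO level on average, with a log2 fold change of -7.48 (standard error 0.08, edgeR adjusted p = 2.5e-11), the 10th lowest of the 12597 genes. SPRY1, which restrains receptor signalling in the developing kidney, had 34.3, 37.1 and 36.1 CPM with DMSO and 0.171, 0.285 and 0.202 CPM with MAPKi. Only 6, 9 and 8 reads stand behind these MAPKi values, so counting limits them more than it does those of the other 5. Its log2 fold change was -7.35 (standard error 0.12, edgeR adjusted p = 1.6e-10), the 11th lowest. SPRY2, which binds the ubiquitin ligase CBL and the adaptor GRB2, had 108, 106 and 111 CPM with DMSO and 2.22, 2.12 and 2.05 CPM with MAPKi. The SD was 2.72% of the mean with DMSO and 4% with MAPKi (n = 3), and the log2 fold change was -5.67 (standard error 0.06, edgeR adjusted p = 2.5e-11), the 27th lowest.

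The SPRED genes kept a larger part of their transcripts. SPRED1, which is mutated in Legius syndrome and brings NF1 to RAS, had 199, 194 and 198 CPM with DMSO and 48.1, 49.1 and 48.2 CPM with MAPKi, or 24.6% of the DMSO mean. The MAPKi libraries were almost alike (48.5 ± 0.534 CPM, SD, n = 3), with a log2 fold change of -2.02 (standard error 0.04, edgeR adjusted p = 4.6e-10). SPRED2, the closest relative of SPRED1, had 142, 138 and 137 CPM with DMSO and 44.5, 48.7 and 49.3 CPM with MAPKi. It retained 34.2% of the DMSO mean, the largest part of the 6, with a log2 fold change of -1.55 (standard error 0.05, edgeR adjusted p = 4e-09). SPRED3, a SPRED known mainly from the brain, was low throughout, with 9.59, 8.46 and 9.88 CPM in DMSO and 1.73, 2.51 and 2.6 CPM in MAPKi libraries. It retained 24.5% of its DMSO mean, with a log2 fold change of -2.03 (standard error 0.16, edgeR adjusted p = 1.4e-06). Among the genes tested SPRED3, SPRED1 and SPRED2 ranked 468th, 471st and 837th from the lowest log2 fold change. The 95% intervals of the SPRED genes lay between -2.38 and -1.44, and those of the Sprouty genes between -7.66 and -5.54.

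SPRY3, the remaining Sprouty, was barely detected and was not tested. It had 3, 6 and 1 reads in DMSO, 4, 2 and 10 in MAPKi, 17, 4 and 2 in CTRL and 16, 9 and 9 in Gln-depleted libraries, and the groups overlapped in both experiments. A further row named after SPRY3 held from 0 to 2 reads per library.

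The antisense RNA that starts across from SPRY4 was low and also fell with MAPKi. SPRY4-AS1 had 2.19, 2.83 and 2.27 CPM with DMSO and 0.0853, 0.0951 and 0.152 CPM with MAPKi, from 3, 3 and 6 reads. Its log2 fold change was -4.38 in a fit of all 15975 genes that passed the count limit (standard error 0.28, edgeR adjusted p = 1.5e-06), where 35.9% of the genes were lower. It had 2.2, 2.05 and 2.17 CPM in CTRL and 1.71, 2.86 and 2.58 CPM in Gln-depleted libraries, which overlap, with a log2 fold change of 0.19 (standard error 0.30, edgeR adjusted p = 0.696). In GENCODE its exons share 0 bases with those of SPRY4. Whether the counting used the strand is not given in the sources used here, and reads of overlapping genes on opposite strands cannot be told apart without it. The same holds for SPRY3, of whose exon bases 0.312% overlap TMLHE on the other strand, whereas SPRED2 overlaps the gene body of a non-coding RNA on its own strand (ENSG00000232693) with 0 shared exon bases.

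**Figure D2:**
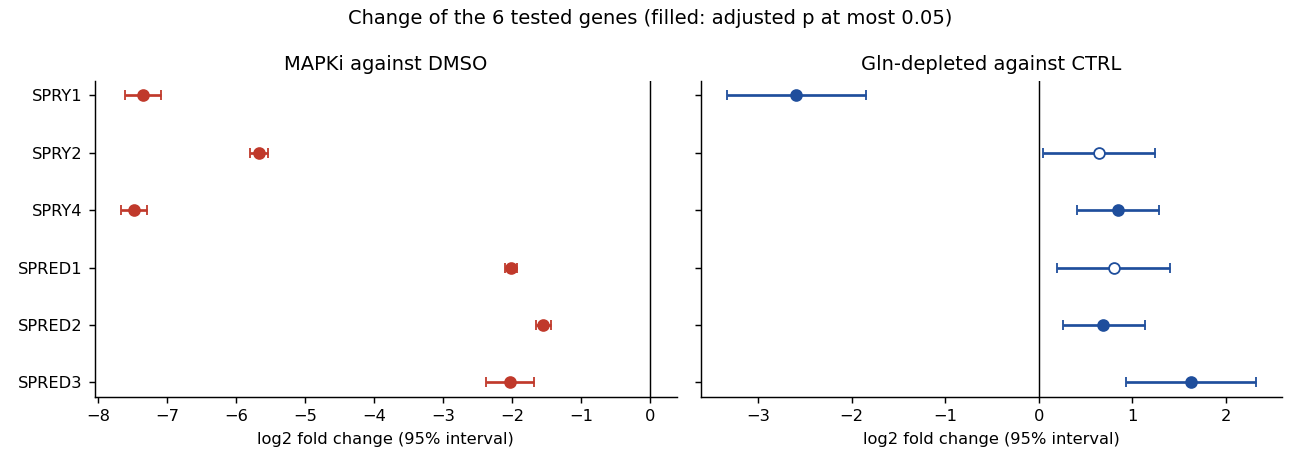
log2 fold change of the 6 tested genes with its 95% interval, from edgeR, for MAPKi against DMSO (left) and Gln-depleted against CTRL (right, on another scale), with filled points at an adjusted p of at most 0.05. All 6 are below 0 with MAPKi, and with Gln depletion SPRY1 alone is below 0, at -2.59.

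Gln depletion lowered 1 of the 6 tested members and raised 3 in the fit that took no account of replicate numbers. SPRY1 fell 6.02-fold, while SPRED3, SPRY4 and SPRED2 rose 3.09-fold, 1.8-fold and 1.62-fold (edgeR, Benjamini-Hochberg adjustment). SPRY2 and SPRED1 had log2 fold changes of 0.64 and 0.80 that did not pass the test, with adjusted p = 0.12 and 0.0687. Both passed with the replicate block described below, where 5 members were higher, as were 24.0% of the genes tested. The median over the 6 members was 0.75, against -0.03 over the 12513 genes tested. Of these genes 9.64% were lower and 8.79% were higher, and 2.39% and 3.19% were so past a 1.5-fold change, where SPRY1 remained as lower and SPRED3 alone as higher. Every Gln-depleted library lay below every CTRL library for SPRY1, as for 22.1% of the genes tested, and above every CTRL library for SPRY4, SPRED2 and SPRED3, as for 18.6% of them.

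SPRY1 had 51.8, 36.6 and 33.5 CPM in CTRL and 9.46, 4.58 and 6.17 CPM in Gln-depleted replicates 1 to 3. The highest Gln-depleted library was thus well under the lowest CTRL library, and the log2 fold change was -2.59 (standard error 0.32, edgeR adjusted p = 0.00351), the 67th lowest of the 12513 genes. SPRY4 had 599, 449 and 572 CPM in CTRL and 1056, 1017 and 836 CPM in Gln-depleted libraries. Its log2 fold change was 0.85 (standard error 0.19, edgeR adjusted p = 0.0221), and the groups did not overlap. SPRY2 had 177, 135 and 111 CPM in CTRL and 175, 287 and 198 CPM in Gln-depleted libraries. The groups overlapped in replicate 1, where Gln-depleted and CTRL cells were nearly equal.

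SPRED3 had 10.4, 6.75 and 6.66 CPM in CTRL and 17.8, 32.8 and 23.1 CPM in Gln-depleted libraries, with a log2 fold change of 1.63 (standard error 0.30, edgeR adjusted p = 0.0115), the largest rise of the 6. SPRED2 had 148, 162 and 168 CPM in CTRL and 212, 301 and 261 CPM in Gln-depleted libraries, with a log2 fold change of 0.69 (standard error 0.19, edgeR adjusted p = 0.0407). SPRED1 had 153, 235 and 194 CPM in CTRL and 234, 402 and 377 CPM in Gln-depleted libraries. The Gln-depleted replicate 1 of SPRED1 fell just under the CTRL replicate 2, so that the groups overlapped, although each replicate was higher than the CTRL replicate of the same number.

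**Figure D3:**
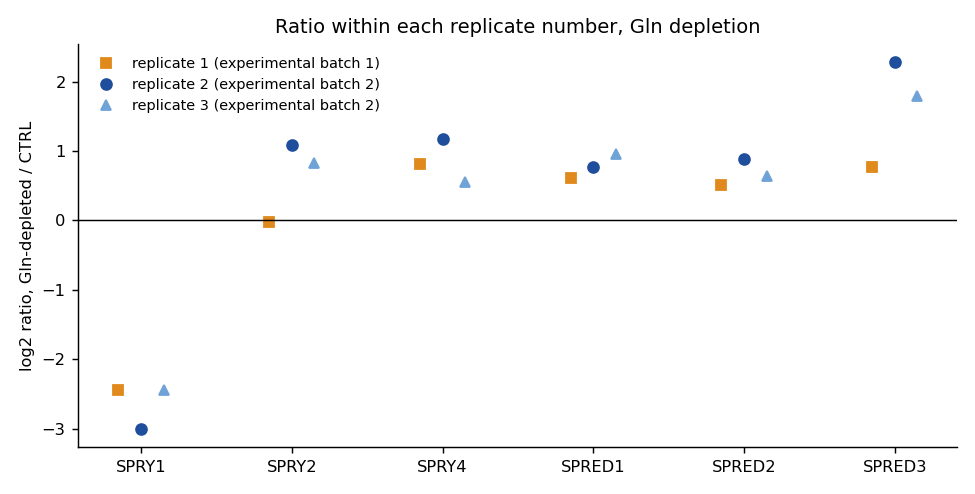
log2 ratio of Gln-depleted to CTRL CPM within each replicate number for the 6 tested genes, with squares for replicate 1 (experimental batch 1) and circles and triangles for replicates 2 and 3 (experimental batch 2). SPRY1 is at -2.45, -3.00 and -2.44, and SPRY2 is at -0.02 in replicate 1 but at 1.09 and 0.83 in the others.

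The replicate numbers were taken to pair the libraries in the Gln depletion experiment, and with the replicate block 5 of the 6 members were higher, as were 24.0% of the genes tested. SPRY2 then had a log2 fold change of 0.63 (edgeR adjusted p = 0.0342, from 0.0119 to 0.378 over its alternatives) and SPRED1 of 0.78 (edgeR adjusted p = 0.0015, from 0.0015 to 0.219). Within experimental batch 1, with 1 library per group and no test, the log2 ratios were -2.45 for SPRY1, -0.02 for SPRY2, 0.82 for SPRY4, 0.61 for SPRED1, 0.51 for SPRED2 and 0.77 for SPRED3. Within experimental batch 2 the log2 fold changes were -2.67, 1.01, 0.88, 0.89, 0.79 and 2.08 in the same order, all past the test (edgeR adjusted p from 0.00155 to 0.015). In that setting 2124 of the 12473 genes tested were lower and 2236 were higher. SPRY1 was lower whichever library was left out. The count of higher members did depend on single libraries, being 3 with all libraries, 0 without CTRL replicate 2, and 1 without CTRL replicate 3 or without Gln-depleted replicate 2. The count over all genes fell as well, from 1100 of 12513 higher with all libraries. It was 482 of 12507, 463 of 12498 and 436 of 12501 in these settings, in the same order. SPRED2 stayed past the test only when the library left out was Gln-depleted replicate 1, with adjusted p from 0.0644 to 0.147 otherwise. SPRY4 missed it without CTRL replicate 2, CTRL replicate 3 or Gln-depleted replicate 2 (adjusted p = 0.0905, 0.0661 and 0.0874), and SPRED3 without CTRL replicate 2 (adjusted p = 0.0502). SPRY2 passed it without CTRL replicate 1 (adjusted p = 0.0497) and SPRED1 without Gln-depleted replicate 1 (adjusted p = 0.0235).

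The effects of MAPKi and of Gln depletion differed for each of the 6 members in a contrast over the 12 libraries, where every difference of log2 fold changes was negative. The difference was -8.28 for SPRY4 (standard error 0.25), -6.27 for SPRY2 (0.31), -4.73 for SPRY1 (0.45), -3.61 for SPRED3 (0.37), -2.80 for SPRED1 (0.26) and -2.21 for SPRED2 (0.17). The edgeR adjusted p ranged from 4.4e-09 for SPRY4 to 2e-05 for SPRED3, and 20.9% of the 12629 genes tested had a difference in this direction. This fit took 1 spread per gene over both experiments, although replicates differed more in the Gln depletion experiment. Its standard errors thus do not carry that larger spread in full. For SPRED2 the standard error of the difference, 0.17, was below that of the Gln depletion effect alone, 0.19. SPRY1 is the member that fell in both experiments, with log2 fold changes of -7.35 and -2.59. Each effect was measured against a control of its own sequencing batch. A response that depends on the batch or the experiment cannot be told apart from a difference between the treatments in this contrast.

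The order of the members changed with MAPKi when levels were set per kb of exon, so that genes of different lengths could be compared. Exon lengths came from GENCODE and ran from 3213 bases for SPRY2 to 10561 bases for SPRY3, whereas the authors counted on the NCBI annotation. With DMSO the levels per kb were 73.3 ± 1.4 CPM for SPRY4, 33.8 ± 0.918 for SPRY2, 25.4 ± 0.38 for SPRED1, 25.2 ± 0.468 for SPRED2, 9.04 ± 0.348 for SPRY1, 1.59 ± 0.128 for SPRED3 and 0.00921 ± 0.00682 for SPRY3 (SD, n = 3). SPRED1 and SPRED2 overlapped, and the other neighbours in this order did not. With MAPKi the order ran from SPRED2 (8.63 ± 0.479 CPM per kb) and SPRED1 (6.26 ± 0.0689) to SPRY2 (0.663 ± 0.0265), SPRY4 (0.414 ± 0.0607), SPRED3 (0.389 ± 0.0812), SPRY1 (0.0553 ± 0.015) and SPRY3 (0.0136 ± 0.00928). Only SPRY4 and SPRED3 overlapped in that order. These spreads take the exon lengths as exact. In CPM without length, SPRED1 and SPRED2 had means of 48.5 and 47.5 with MAPKi and overlapped, and SPRY4 (2.71) was above SPRY2 (2.13). The sum of the 7 levels was 168 ± 0.868 CPM per kb with DMSO and 16.4 ± 0.626 with MAPKi. The 3 SPRED genes made up 31% ± 0.617 of this sum with DMSO and 93% ± 0.37 with MAPKi (SD, n = 3), and SPRY4 alone went from 43.5% to 2.52%.

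In CTRL cells the order was SPRY4 (82.4 ± 12.1 CPM per kb), SPRY2 (43.9 ± 10.4), SPRED2 (28.9 ± 1.84), SPRED1 (25.1 ± 5.3), SPRY1 (10.2 ± 2.47), SPRED3 (1.36 ± 0.369) and SPRY3 (0.0194 ± 0.0207, SD, n = 3). SPRED2 and SPRED1 overlapped there. In Gln-depleted cells SPRED3 (4.19 ± 1.29 CPM per kb) and SPRY1 (1.7 ± 0.628) had exchanged their places and did not overlap, while SPRY4 (148 ± 17.9), SPRY2 (68.4 ± 18.4), SPRED2 (46.8 ± 8.15) and SPRED1 (43.6 ± 11.7) kept theirs. SPRY2 and SPRED2 overlapped, as did SPRED2 and SPRED1. SPRY3 was at 0.0308 ± 0.00929. The sum of the 7 levels was 192 ± 14.3 CPM per kb in CTRL and 313 ± 39.1 in Gln-depleted cells. The SPRED share of it was 29.1% ± 5.32 and 30.2% ± 4.92, and the SPRY1 share went from 5.3% ± 0.895 to 0.561% ± 0.252 (SD, n = 3).

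**Figure D4:**
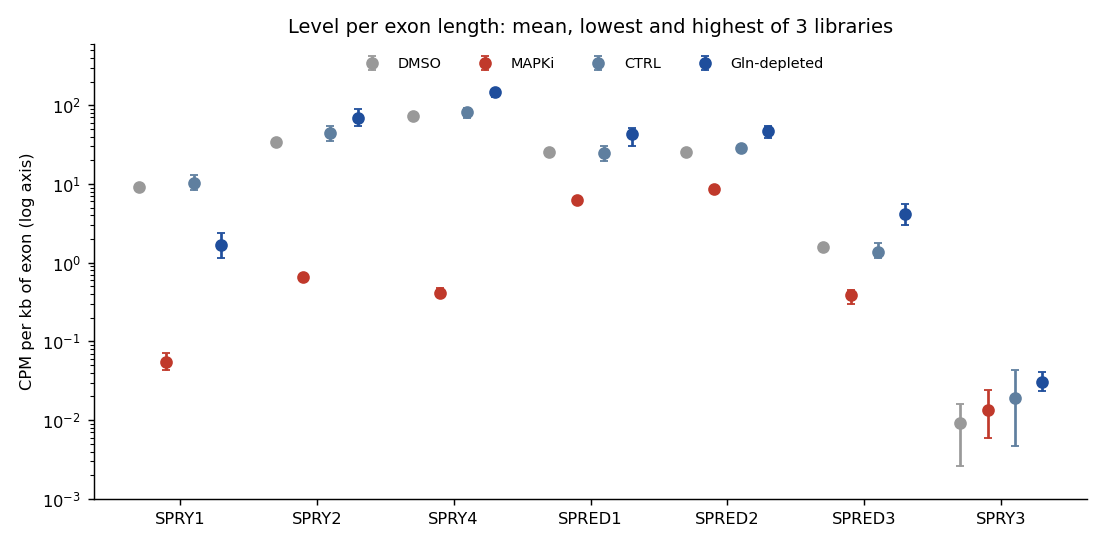
CPM per kb of exon for the 7 genes in the 4 groups on a log axis, with points at the mean and bars from the lowest to the highest of 3 libraries. With MAPKi SPRED2 and SPRED1, at 8.63 and 6.26 CPM per kb, are the highest, whereas SPRY4 and SPRY2 are the highest in the other 3 groups.

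The counts for the other genes of the pathway are to be read against the shares over all genes given above, 39.8% lower and 38.4% higher with MAPKi and 9.64% lower and 8.79% higher with Gln depletion. With the replicate block of the Gln depletion experiment, 25.0% of all genes were lower and 24.0% higher, and the blocked counts are given beside the others. Other feedback inhibitors shared the fall with MAPKi in part. Of 14 such genes 12 were tested, of which 9 fell, 1 rose and 2 did not pass, with a median log2 fold change of -0.66. DUSP6, the phosphatase that acts on ERK in the cytoplasm and served as the check of the treatment, went from 130 to 0.171 CPM on average, with a log2 fold change of -9.55 (standard error 0.13, edgeR adjusted p = 6.9e-11). That MAPKi mean is below the one of SPRY1 (0.219 CPM), so counting limits the size of this fall too. DUSP4, a nuclear ERK phosphatase, fell with -3.65 (standard error 0.06, edgeR adjusted p = 1.7e-10), and DUSP10, which acts on p38 and JNK, rose with 1.37 (standard error 0.09, edgeR adjusted p = 5.8e-07). With Gln depletion 1 of the 12 fell, 2 rose and 9 did not pass, with a median of -0.13, and with the block 4 fell, 4 rose and 4 did not pass. ERRFI1, an inhibitor of the EGF receptor, had a log2 fold change of 2.88 (standard error 0.34, edgeR adjusted p = 0.00305), DUSP6 of 1.14 (standard error 0.25, edgeR adjusted p = 0.0201) and DUSP10 of -1.15 (standard error 0.32, edgeR adjusted p = 0.044).

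The transcription factors at the end of the pathway included several large falls. All 14 were tested, of which 8 fell and 5 rose with MAPKi, with a median log2 fold change of -0.77. The ETS factors ETV5 and ETV4, themselves ERK targets, fell most, with -6.44 and -6.01 (standard error 0.07 each, edgeR adjusted p = 2.5e-11 each). FOS, a subunit of AP-1, and CIC, the repressor that ERK signalling inactivates, rose most, with 2.39 and 1.00 (standard errors 0.06 and 0.05, edgeR adjusted p = 1.5e-09 and 3.5e-08). With Gln depletion 3 rose and 11 did not pass, with a median of 0.51, and with the block 1 fell, 8 rose and 5 did not pass. EGR1 and FOSL1, early response genes of the pathway, had log2 fold changes of 2.24 and 2.21 (standard errors 0.49 and 0.43, edgeR adjusted p = 0.0198 and 0.0138).

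**Figure D5:**
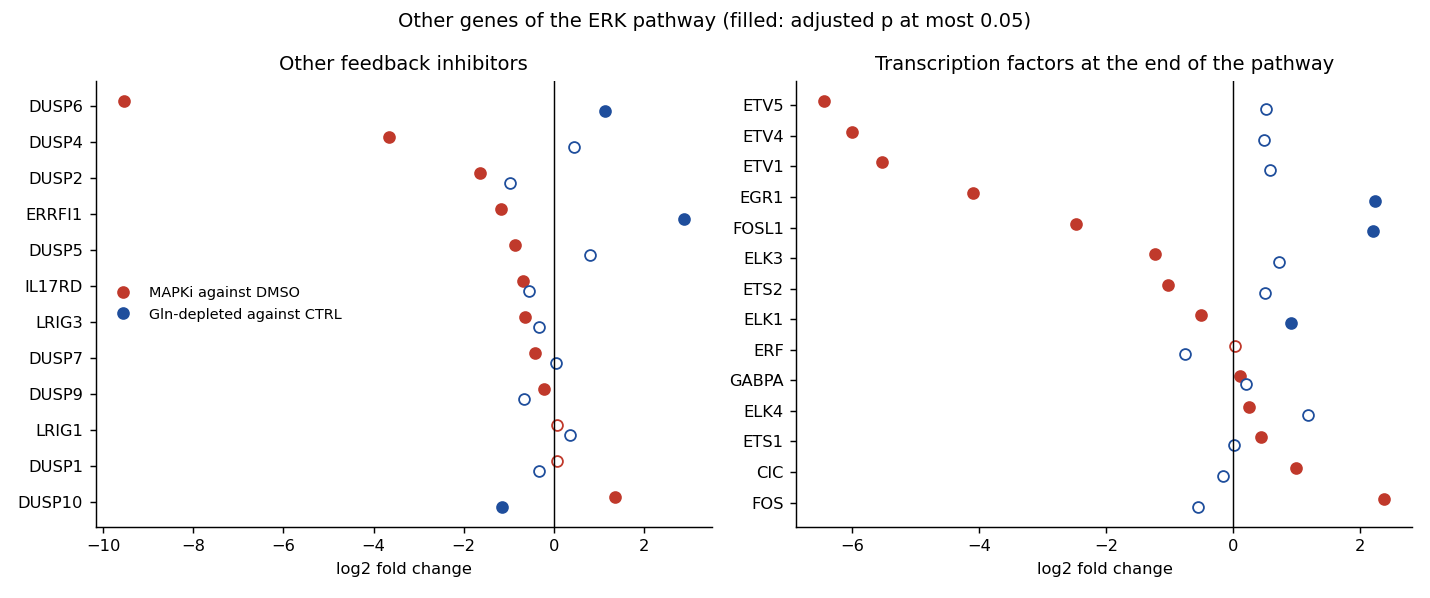
log2 fold changes of the tested genes of 2 lists, other feedback inhibitors (left) and transcription factors (right), with MAPKi in red and Gln depletion in blue, filled at an adjusted p of at most 0.05. DUSP6 at -9.55 and ETV5 at -6.44 lie lowest with MAPKi, and both are above 0 with Gln depletion.

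The proteins that Sproutys and SPREDs bind or act on did not move as one. Of 16 genes, all tested, 4 fell, 6 rose and 6 did not pass with MAPKi, with a median log2 fold change of 0.01, shares no larger than over all genes. CAV1, the caveolae protein to which Sproutys bind, and CBL fell with -1.71 and -0.45 (edgeR adjusted p = 5.3e-09 and 3.2e-05), and the docking protein GAB1 and the RAS exchange factor SOS2 rose with 1.02 each (edgeR adjusted p = 2.9e-07 and 2e-08). With Gln depletion 1 fell, 2 rose and 13 did not pass, with a median of 0.46, and with the block 1 fell, 8 rose and 7 did not pass. GAB1 had a log2 fold change of -1.15, BRAF of 1.36 and the adaptor SHC1 of 1.03 (edgeR adjusted p = 0.0124, 0.0307 and 0.0084). NF1, the partner of the SPREDs, was named after its values were seen and passed in neither experiment, with log2 fold changes of 0.23 (standard error 0.54) and 0.89 (standard error 0.47) and adjusted p = 0.712 and 0.22 (0.195 with the block).

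Of 10 RAS GTPase-activating proteins 7 were tested, of which 3 fell and 2 rose with MAPKi, with a median log2 fold change of -0.12. RASA2 and DAB2IP fell with -1.38 and -0.87, and RASAL2 and RASA4 rose with 0.94 and 2.00 (edgeR adjusted p from 1.3e-08 for RASA2 to 1e-05 for RASA4). RASA4 has near-identical copies in the genome and its counts are uncertain. With Gln depletion RASA1, the p120 GAP, rose with 1.14 (standard error 0.28, edgeR adjusted p = 0.029), and the other 6 did not pass, with a median of 0.12. With the block 1 fell, 1 rose and 5 did not pass.

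All 6 modifiers of Sprouty proteins were tested, and 4 fell and 2 rose with MAPKi, each by less than 0.5 on the log2 scale, with a median of -0.16. The ubiquitin ligases SIAH2 and NEDD4 had log2 fold changes of -0.42 and -0.33, and the kinases DYRK1A and MKNK2 of 0.40 and 0.28 (edgeR adjusted p from 1.4e-05 for DYRK1A to 0.00024 for SIAH2). With Gln depletion MKNK2 and SIAH2 rose, with 1.12 and 0.95 (edgeR adjusted p = 0.0113 and 0.00937), and 4 did not pass, with a median of 0.79. With the block 4 rose and 2 did not pass.

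Of 11 receptor tyrosine kinases 9 were tested, and 5 fell and 2 rose with MAPKi, with a median of -0.28. The VEGF receptors KDR and FLT1 fell most, with -4.56 and -2.32, and PDGFRB and MET rose with 1.84 and 0.93 (edgeR adjusted p from 4.7e-07 for PDGFRB to 3.8e-06 for FLT1). KDR had 0.168 CPM on average with MAPKi, so counting limits the size of its fall. With Gln depletion KDR and FGFR4 fell with -1.39 and -0.82 and PDGFRA rose with 1.28 (edgeR adjusted p = 0.036, 0.036 and 0.00845), the other 6 did not pass, and the median was 0.58. With the block 2 fell, 5 rose and 2 did not pass. The removal of glutamine showed in the amino acid response genes, of which 8 of 9 were tested and all 8 rose, with the block as without it, with a median of 2.74. The cystine transporter SLC7A11 and CHAC1 rose most, with 3.46 and 3.29, and PSAT1 and VLDLR least, with 1.94 and 1.15 (edgeR adjusted p from 0.00187 for CHAC1 to 0.0116 for VLDLR). With MAPKi 6 of these 8 fell and 2 rose, with a median of -0.91.

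The genes whose pattern was most like that of each member were found from the Pearson correlation of log2(CPM + 0.5), less the mean of the control group of the same experiment, over the 12 libraries and 12628 other protein-coding genes. The libraries share their groups and treatments, so these values are a description. DUSP6 (0.999), ETV4 (0.999) and WDR5 (0.998) were nearest to SPRY4. CDC45, HROB and TUBG1 (0.998 each) were nearest to SPRY1, and all of them had log2 fold changes below 0 in both experiments. FARSB, PLAT and C10orf90 (0.997 each) were nearest to SPRY2. HTR7 (0.994), CD200 (0.994) and EXOSC8 (0.993) were nearest to SPRED1, SNTB1 (0.995), E2F7 (0.994) and EXOSC8 (0.994) to SPRED2, and EGR1, TNPO3 and REPS1 (0.990 each) to SPRED3. Among the members the correlation was highest between SPRY2 and SPRY4 (0.996) and between SPRED1 and SPRED2 (0.993), and lowest between SPRY1 and SPRED3 (0.506).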

How the data were processed

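The deposited table holds raw read counts per gene: the authors trimmed the reads with fastp 0.20.1, aligned them to GRCh38.p13 with HISAT2 2.2.1 and counted reads on exons of the NCBI annotation with HTSeq 0.13.5, without normalization. The members, the lists and the rules for naming genes were chosen with earlier results of these data known. The named genes are the 7 members, the 2 lowest and 2 highest log2 fold changes among genes of each list that passed the test, DUSP6, genes that overlap a member, and the 3 genes nearest in pattern to each member. NF1 and several cell type markers were named outside these rules.

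Rows were matched to RefSeq symbols, which left 19381 protein-coding rows. Rows that repeat a symbol with a number added, 4858 in all, were kept apart and entered only the fit of all genes. Each experiment was fitted on its own with edgeR 4.0.16 in R 4.3.3 (TMM, quasi-likelihood test against no change, no term besides treatment), keeping protein-coding genes whose mean normalized count reached 10, with Benjamini-Hochberg adjustment over all of them. The same fit was tested against a 1.5-fold change, as in the study. Calls required an adjusted p of at most 0.05, and the standard error is the log2 fold change divided by the root of the F statistic. Alternatives were DESeq2 1.42.0, its size factors in edgeR, no count limit (at least 1 read), a mean of at least 100, all genes, a fit of the 12 libraries, the replicate number or the experimental batch as a term, each library left out in turn, and an adjusted p of 0.01. The procedure was tested on simulated data. The simulated counts had 1 common spread for all genes and no replicate or batch differences. They therefore do not cover the pairing or batch of the Gln depletion experiment.

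Replicate numbers were checked by the correlation, across genes, of deviations from the group means between libraries with the same number. It was 0.664, 0.550 and 0.432 in the Gln depletion experiment, whose numbers were taken to pair the libraries because all 3 exceed 0.1. Libraries of unlike number within experimental batch 2 reached 0.221 and 0.113, below those of the same number but also past 0.1. The rule alone thus cannot separate pairing from a shared experimental batch. In both experiments the labels tie each replicate number to an experiment number without saying what it marks. Differences between replicates exceeded sampling noise in all pairs, with a chi-square of 4.47 to 174 per degree of freedom. Gene models and the genome sequence were GENCODE and GRCh38, the promoter table RefSeq, and figures were drawn with matplotlib 3.10.9. With these depths the spread between libraries limits precision, except for genes with few reads such as SPRY1 with MAPKi.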

Additional observations from a re-analysis of the deposited data

How the results depend on the processing

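All 6 tested members were lower with MAPKi, and all 6 differences between the effects were negative and past the test, under every alternative run, including DESeq2, both scalings and each library left out. SPRY1 was lower in Gln-depleted cells under every alternative, with log2 fold changes from -2.92 to -2.32 and adjusted p up to 0.0181. The members higher in Gln-depleted cells, 3 in the reported fit, numbered 5 with the replicate block, with experimental batch as a term, within experimental batch 2 and in the fit of all 12 libraries. They numbered 4 with DESeq2, 1 against a 1.5-fold change, 0 at an adjusted p of 0.01, and from 0 to 4 when each library was left out. With DESeq2 1737 of 12513 genes were higher, and 3.19% of the genes tested were higher past a 1.5-fold change. With a library left out, from 436 of 12501 to 1246 of 12479 genes were higher. The share of all genes at an adjusted p of 0.01 was not counted. Over all genes, 2724 of 12513 were higher with experimental batch as a term and 2236 of 12473 within experimental batch 2. In the fit of all 12 libraries, which took 1 spread per gene over both experiments, 2392 of 12511 genes were higher. SPRY2 turned to -0.02 within experimental batch 1, where it has 1 library per group and no test. Of 282 values of single members under the alternatives, 259 were classed as unchanged. These kept their direction and side of the threshold or, without a test, lay within 1 SD of the 3 replicate ratios from the reported value. The latter were SPRY1, SPRY4 and SPRED2 within experimental batch 1. Of the other 23 values, 9 lost the call, 11 gained it and 1 changed sign. The remaining 2, without a test (SPRED1 and SPRED3 within experimental batch 1), lay further than that SD from the reported value. All 23 were in the Gln depletion experiment. The counts of all genes there also moved, from 1206 lower and 1100 higher to 3132 and 3006 with the replicate block, and to 320 and 436 without Gln-depleted replicate 2.

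In the MAPKi experiment the same-number correlations were 0.117, 0.029 and 0.044, not all above 0.1. Those libraries share replicate and experiment numbers but were not taken as paired, and the replicate block left 6 of 6 members lower. Depth limits SPRY3, which had from 1 to 17 reads per library, and the size of the fall of SPRY1 with MAPKi. The 2 experiments lie in different sequencing batches and have no library in common.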
